A study of Mus musculus with 16 samples.

Results

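The genes described here build the hyaluronan and versican matrix of the heart and vessel wall, together with 3 glypicans. They are Vcan, Has1, Has2, Has3, Cd44, Hyal1, Hyal2, Gpc1, Gpc3 and Gpc6. A probe set, the group of probes that the array reports as 1 value, was taken when the platform annotation gave it exactly 1 gene and that gene was 1 of these 10. That rule found 24 probe sets of 9 genes, out of 45037 probe sets of 18193 genes. Vcan had 8 of them, Gpc6 had 5, Cd44 had 4, Has2 had 2 and the other 5 genes had 1 each. Hyal1, which encodes a hyaluronan-degrading enzyme of the lysosome, had no value, because its 2 probe sets are each annotated to another gene as well.

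The study measured RNA of mice 30 days old in 4 groups of 4 arrays: aortic valve of Eln+/- mice, aortic valve of Eln+/+ mice, ascending aorta of Eln+/- mice and ascending aorta of Eln+/+ mice. Eln+/- mice carry 1 inactive allele of the elastin gene throughout the body, and Eln+/+ mice are their wild-type counterparts. The valve piece was dissected as cusp, annulus and root, so it includes tissue beside the leaflet. Each array stands for 1 specimen and nothing was pooled, but the RNA was amplified from small amounts and the labels give no sex.

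Hyaluronan is a long sugar chain that Has1, Has2 and Has3 spin out through the cell membrane. Versican, a large proteoglycan with chondroitin sulfate chains, binds to it, and CD44 is its main receptor on the cell surface. In the mouse embryo Has2 and Vcan are needed for the cardiac jelly from which the valve leaflets form. Glypicans are heparan sulfate proteoglycans held on the outer face of the cell membrane by a lipid anchor, where they bind growth factors such as those of the FGF, Wnt, hedgehog and BMP families.

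For every probe set, the value of an array is divided by the median of all 16 arrays and given as log2. A value of 0 is therefore that median, and the values cannot be compared between genes or read as a level. Each difference is a difference of 2 group means, with the standard error (SE) and the p of limma, a linear model fitted to all probe sets and adjusted over all of them, and an adjusted p under 0.05 is called a change. In bulk tissue, fewer cells of a type and less RNA per cell cannot be told apart. The array medians of the ratios lay between 0.957 and 1.00. On Eln probe set 1420854_at, Eln itself averaged -1.71 ± 0.78 in Eln+/- valve and -0.44 ± 0.58 in Eln+/+ valve (SD, n = 4 each), a difference of -1.27 ± 0.34 (SE) with a limma-adjusted p of 0.395. In the aorta this probe set averaged -0.12 ± 0.35 in Eln+/- and 0.30 ± 0.19 in Eln+/+ (SD, n = 4 each), a difference of -0.42 ± 0.34 (SE) with a limma-adjusted p of 0.900. The other Eln probe set, 1420855_at, differed by -0.61 in the valve and -0.22 in the aorta, with limma-adjusted p of 0.454 and 0.920.

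Some arrays stood apart. The T cell and thymocyte marker list had its highest means on Eln+/- aorta replicates 2 and 4, at 2.03 and 1.12, against -0.074 to 0.27 on the other 6 aorta arrays. Xist minus the Y-linked genes lay between 0.27 and 0.84 on all 8 Eln+/- arrays, on Eln+/+ valve replicate 2 and on Eln+/+ aorta replicate 4. It lay between -11.05 and -10.65 on the other 6 Eln+/+ arrays. Genotype and this sex signal therefore overlap in large part. Fits with this measure as a covariate are given below, but they rest on Eln+/+ valve replicate 2 and Eln+/+ aorta replicate 4. The part of sex in any genotype difference below therefore cannot be told apart from genotype.

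The promoters of Vcan and Gpc3 are shown because these are the members with a tissue difference for which RefSeq promoter windows (build GRCm38.p6) were at hand, among 5 of the 9 measured genes that had one. Each is the 250 bases before the start of the gene, 5′ to 3′ on the strand of the gene, with GC boxes (GGGCGG on either strand) in capitals.
Vcan: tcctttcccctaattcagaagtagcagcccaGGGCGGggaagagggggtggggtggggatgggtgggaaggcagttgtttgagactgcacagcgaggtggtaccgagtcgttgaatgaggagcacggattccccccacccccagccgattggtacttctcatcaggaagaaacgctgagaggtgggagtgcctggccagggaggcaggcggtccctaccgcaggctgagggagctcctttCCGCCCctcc
Gpc3: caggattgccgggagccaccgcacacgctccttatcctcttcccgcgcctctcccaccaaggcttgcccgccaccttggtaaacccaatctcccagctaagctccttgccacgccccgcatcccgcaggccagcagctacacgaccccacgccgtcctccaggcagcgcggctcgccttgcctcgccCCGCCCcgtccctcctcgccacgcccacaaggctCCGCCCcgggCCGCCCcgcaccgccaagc
The Vcan window lies at chr13:89742513-89742762 on the minus strand and the Gpc3 window at chrX:52613975-52614224 on the minus strand. Vcan has a GC content of 62.4% and Gpc3 of 71.6%, against a median of 52.4% over 32817 promoter windows. The Vcan window holds 1 GC box that starts 219 bases upstream and another, on the opposite strand, 10 bases upstream. The Gpc3 window holds 3, all on the opposite strand, 63, 29 and 19 bases upstream. A GC box was found in 32.7% of all windows. The letters of a TATA box (TATAAA, in 12.4% of windows), an MCAT element (CATTCC, in 12.6%) and an AP-1 site (TGACTCA, in 4.46%) were searched on both strands and are not in these 2 windows, which says nothing of the factors.

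Between valve and aorta of Eln+/- mice, 2 of the 24 probe sets changed upward and 2 downward. Gpc1 and Has2 were higher in the valve, and Gpc3 and Gpc6 were lower. Over all probe sets, 3.27% were called higher and 2.54% lower (5.81% either way) in this comparison, so a count of 2 of 24 in each direction is too small to be read as particular to these genes. In Eln+/+ mice 1 of the 24, a Vcan probe set, was called higher and 0 lower in limma, where 0.848% of all probe sets were called higher and 0.0977% lower (0.946% either way). An unadjusted p under 0.05 was found for 10 of the 24 in Eln+/- mice, against 19% of all probe sets, and for 9 of the 24 in Eln+/+ mice, against 11.8%. The valve and aorta arrays did not overlap for 7 of the 24 in Eln+/- mice, against 11% of all probe sets, and for 8 of the 24 in Eln+/+ mice, against 7.68%. The median difference of the 24 was 0.29 in Eln+/- and 0.24 in Eln+/+ mice, against -0.019 and -0.050 over all probe sets. Probe sets of 1 gene are not separate members, and Vcan and Cd44 weigh most in these counts. With each of the 9 genes taken by its probe set of highest SD, the medians were 0.15 and 0.18. The groups then did not overlap for 3 genes in Eln+/- and 2 in Eln+/+ mice. By genes, 2 were called higher and 1 lower in Eln+/- mice, and 0 in Eln+/+ mice, in limma.

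**Figure D1:**
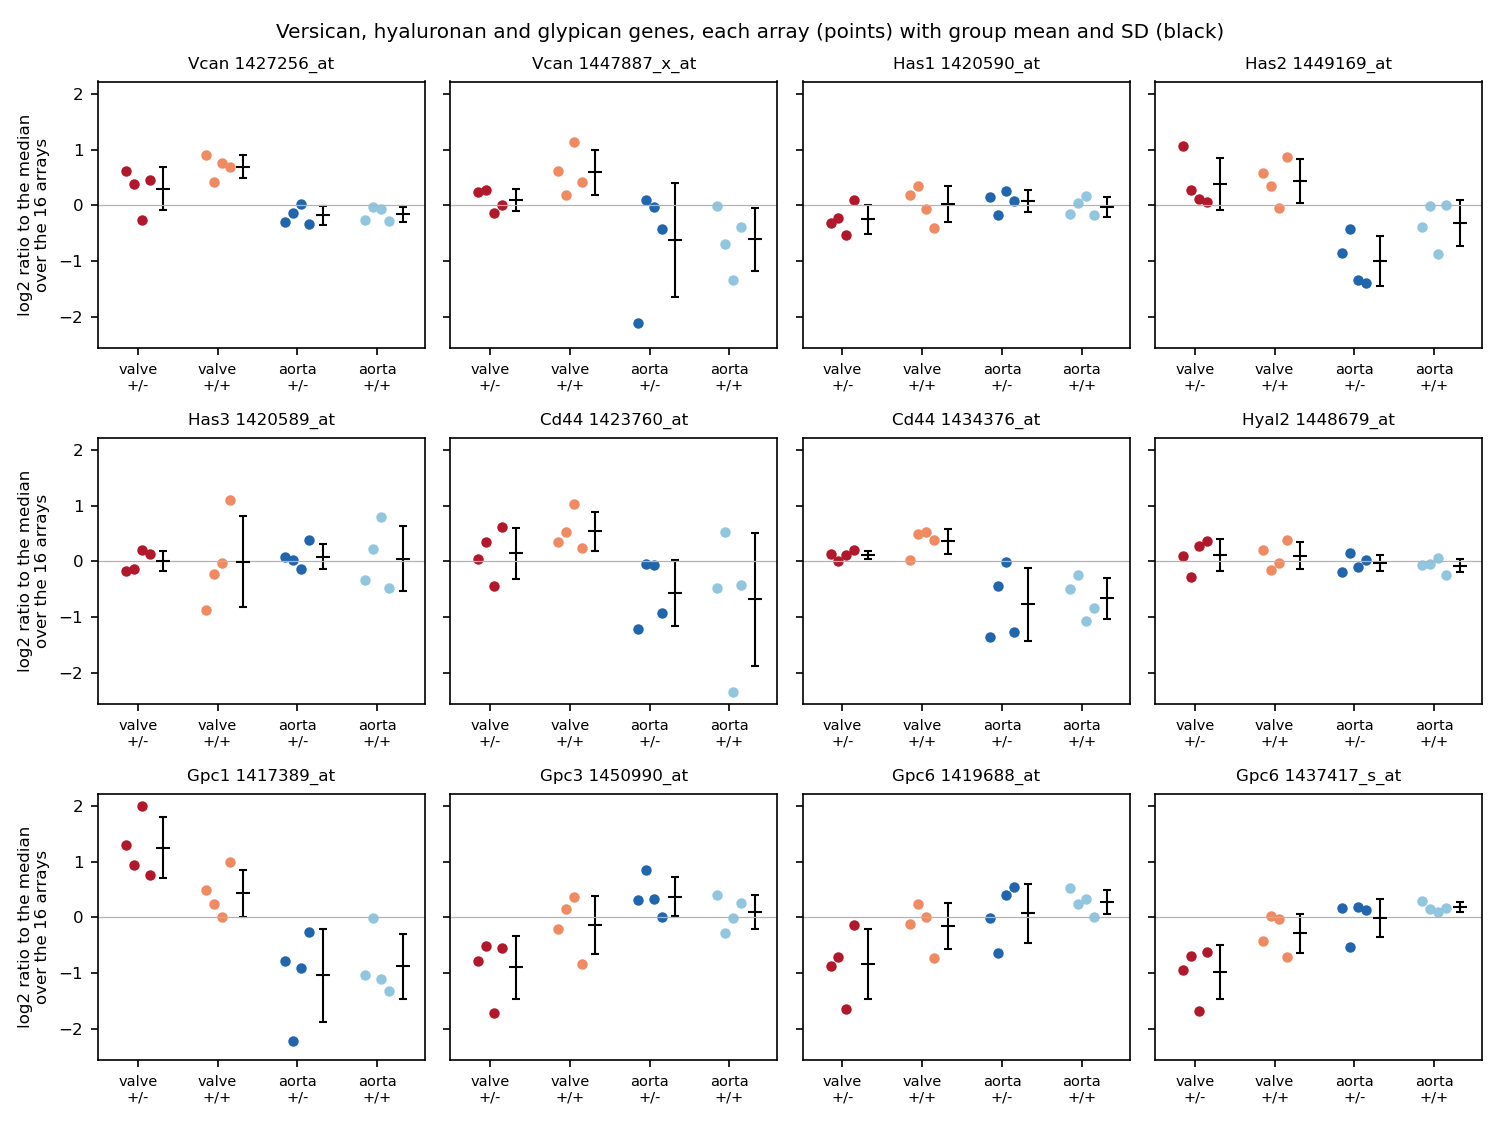
Log2 ratio to the median of the probe set over 16 arrays, for 12 probe sets of 9 genes, in Eln+/- valve, Eln+/+ valve, Eln+/- aorta and Eln+/+ aorta from left to right. Points are arrays, and the bar with its whiskers is the mean ± SD of 4 arrays. The valve arrays of Gpc1 all sit above its aorta arrays, while those of Has3 and Hyal2 overlap.

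Has2, the synthase that makes most of the hyaluronan of the developing heart in mice, was higher in the valve of Eln+/- mice. Its probe set 1449169_at stood at 1.06, 0.28, 0.12 and 0.068 on the 4 Eln+/- valve arrays, against -0.85, -0.42, -1.33 and -1.38 on the 4 Eln+/- aorta arrays. The groups were separate, with valve replicate 1 the highest and aorta replicate 2 the nearest to the valve. The difference was 1.38 ± 0.28 (SE), or 2.60-fold, with a limma-adjusted p of 0.00894 and an exact permutation p of 0.0286, the smallest that 4 against 4 arrays can give. The call held in all 26 alternative settings, with a limma-adjusted p of at most 0.0347. The interval of this difference (95%) ran from 0.78 to 1.97.

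In Eln+/+ mice Has2 had 0.57, 0.36, -0.051 and 0.87 on the valve arrays, against -0.38, -0.0040, -0.87 and 0.0040 on the aorta arrays. Only valve replicate 3 reached into the range of the aorta. This difference was 0.75 (95% interval 0.15 to 1.35), or 1.68-fold, with a limma-adjusted p of 0.294, and was not called. By group, Has2 averaged 0.38 ± 0.46 in Eln+/- valve and 0.44 ± 0.39 in Eln+/+ valve, which did not differ beyond their spread, and then -0.996 ± 0.45 in Eln+/- aorta, the lowest of the 4, and -0.31 ± 0.41 in Eln+/+ aorta (SD, n = 4 each). The other Has2 probe set, 1418678_at, differed by 0.19 in Eln+/- and 0.17 in Eln+/+ mice, with limma-adjusted p of 0.653 and 0.758, and its median over the arrays was below 1. The 2 Has2 probe sets therefore had 1 sign and unlike sizes.

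Has1 and Has3, the other synthases, gave no call. Has1 averaged -0.24 ± 0.26 in Eln+/- valve and 0.08 ± 0.19 in Eln+/- aorta (SD, n = 4 each), a difference of -0.33 with a 95% interval of -0.70 to 0.048 (limma-adjusted p of 0.343). In Eln+/+ mice the Has1 difference was 0.046, and its sign turned without Eln+/+ valve replicate 1 or 2 or Eln+/+ aorta replicate 4 (down to -0.061). Has3 differed by -0.079 in Eln+/- mice, with an interval of -0.79 to 0.63, and by -0.056 in Eln+/+ mice. The Has3 interval leaves out a difference as large as that of Has2 in the same mice. On Eln+/+ arrays Has3 was spread widely, from -0.86 in valve replicate 1 to 1.09 in valve replicate 4.

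Versican RNA leaned toward the valve in both genotypes. All 8 Vcan probe sets were positive in Eln+/- mice, from 0.11 to 1.00, and 7 of 8 in Eln+/+ mice, from -0.085 to 1.19. These probe sets share 1 gene and the same arrays, so they are not 8 measurements of the tissue. The valve and aorta groups were separate for 1 of the 8 in Eln+/- and for 4 of the 8 in Eln+/+ mice.

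The Vcan probe set that passed, 1427256_at, had 0.90, 0.42, 0.76 and 0.70 on the Eln+/+ valve arrays, against -0.25, -0.026, -0.069 and -0.28 on the Eln+/+ aorta arrays. Every valve array was above every aorta array, and the aorta arrays lay close together. The difference was 0.85 ± 0.18 (SE), or 1.80-fold, with a 95% interval of 0.48 to 1.22 and a limma-adjusted p of 0.0278. It was no longer called without Eln+/+ aorta replicate 1, 3 or 4 or Eln+/+ valve replicate 1, 3 or 4, with differences of 0.78 to 0.88 and limma-adjusted p of 0.0659 to 0.112.

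On the Eln+/- arrays this probe set had 0.61, 0.39, -0.26 and 0.46 in the valve, against -0.29, -0.13, 0.026 and -0.33 in the aorta. Valve replicate 3 fell among the aorta arrays, and the other 3 valve arrays lay above them. The difference of 0.48 had a limma-adjusted p of 0.133, and without that array it was 0.66 with a limma-adjusted p of 0.0241. Vcan probe set 1433044_at differed by 1.00 in Eln+/- mice (limma-adjusted p of 0.0714). Probe set 1447887_x_at, the Vcan probe set with the highest SD, differed by 0.72 in Eln+/- mice and by 1.19 in Eln+/+ mice, with limma-adjusted p of 0.355 and 0.219. With the mean over its probe sets as the value of each gene, a setting chosen after the data were seen, Vcan was called higher in the valve of both genotypes, by 0.54 in Eln+/- mice (limma-adjusted p of 0.0254) and by 0.62 in Eln+/+ mice (0.0369).

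CD44 RNA was on the same side, without passing. Cd44 probe set 1434376_at is described because it had the lowest limma p of the 4 Cd44 probe sets. It had 0.13, 0.011, 0.12 and 0.20 in Eln+/- valve, against -1.36, -0.44, -0.011 and -1.25 in Eln+/- aorta. The valve arrays lay within a narrow band just above the highest aorta array, replicate 3. The difference was 0.88 ± 0.26 (SE), or 1.84-fold, with a 95% interval of 0.33 to 1.43, an exact permutation p of 0.0286 and a limma-adjusted p of 0.0581. Without Eln+/- aorta replicate 3 it was 1.13 with a limma-adjusted p of 0.0130, and without Eln+/- aorta replicate 2 it was 0.99 with 0.0419.

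In Eln+/+ mice the same Cd44 probe set had 0.031, 0.50, 0.52 and 0.39 in the valve, against -0.50, -0.24, -1.06 and -0.84 in the aorta. These groups were separate too. The difference was 1.02, or 2.02-fold, with a 95% interval of 0.47 to 1.57 and a limma-adjusted p of 0.0846, and 0.0362 without Eln+/- aorta replicate 3, which enters only through the shared spread. Of the 4 Cd44 probe sets, 4 were positive in Eln+/- mice, from 0.32 to 0.88, and 3 in Eln+/+ mice, from -0.013 to 1.22. The Cd44 probe set of highest SD, 1423760_at, averaged 0.14 ± 0.45 in Eln+/- valve and -0.56 ± 0.59 in Eln+/- aorta (SD, n = 4 each). In Eln+/+ mice it averaged 0.54 ± 0.35 and -0.68 ± 1.19 (SD, n = 4 each). Over the 26 alternative settings its limma-adjusted p was at least 0.243 in Eln+/- and 0.123 in Eln+/+ mice. CD44 is also carried by leukocytes. The macrophage marker list was positive for 10 of 10 members in both tissue comparisons. In limma 1 of them was called higher in Eln+/- mice, against 4.41% of all genes, and 0 in Eln+/+ mice, against 1.19%. The array means of this list ran from 0.29 to 0.55 in Eln+/- valve and -1.02 to 1.08 in Eln+/- aorta. In Eln+/+ mice they ran from -0.21 to 0.47 in the valve and -0.57 to -0.38 in the aorta. The part of macrophages in the Cd44 values was not tested.

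Hyal2, a membrane-anchored enzyme that cuts long hyaluronan chains, showed no call. It averaged 0.12 ± 0.29 in Eln+/- valve and -0.03 ± 0.15 in Eln+/- aorta, a difference of 0.15 with a 95% interval of -0.19 to 0.49 (SD, n = 4 each; limma-adjusted p of 0.690). Hyal2 averaged 0.10 ± 0.24 in Eln+/+ valve and -0.07 ± 0.12 in Eln+/+ aorta, a difference of 0.18 (SD, n = 4 each; limma-adjusted p of 0.711). The interval in Eln+/- mice leaves out a difference as large as that of Has2.

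**Figure D2:**
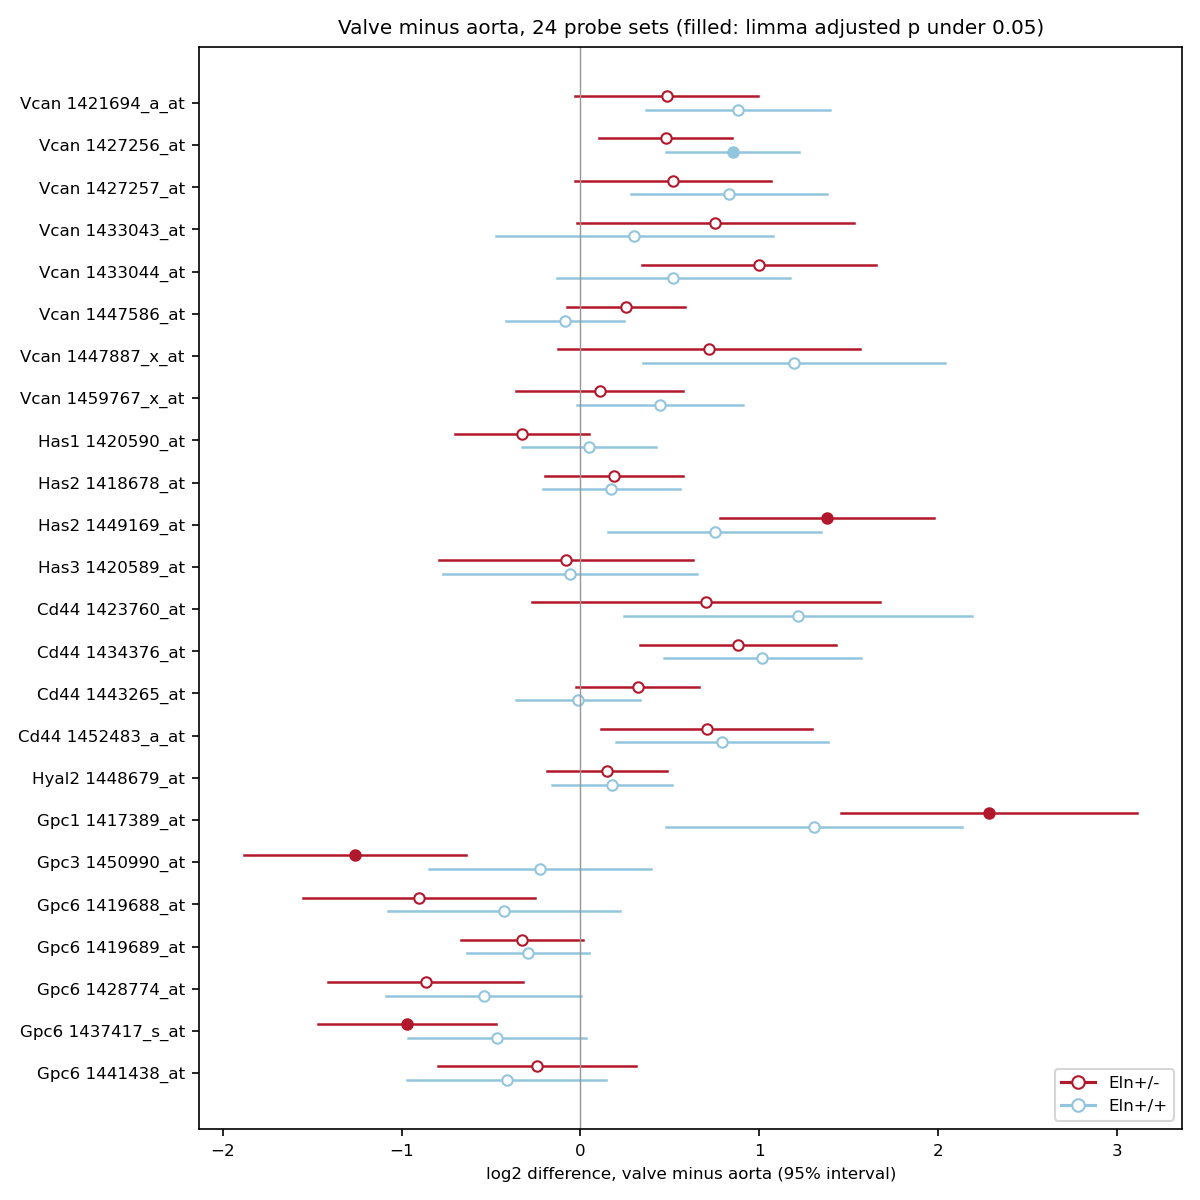
Valve minus aorta difference of the log2 ratio, with its 95% interval, for all 24 probe sets, in Eln+/- mice and in Eln+/+ mice (4 against 4 arrays each). Filled points have an adjusted p under 0.05 in limma: Gpc1, Has2 1449169_at, Gpc3 and Gpc6 1437417_s_at in Eln+/- mice, and Vcan 1427256_at in Eln+/+ mice. All 5 Gpc6 probe sets lie below 0 in both genotypes.

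The glypicans did not move as a family. Gpc1 had the largest difference of the 24 probe sets and was higher in the valve, while Gpc3 and Gpc6 were lower there in Eln+/- mice. Gpc1 stood at 1.30, 0.94, 2.00 and 0.76 on the Eln+/- valve arrays, against -0.77, -2.20, -0.91 and -0.26 on the Eln+/- aorta arrays. The groups were separate by a wide gap. The difference was 2.29 ± 0.39 (SE), or 4.87-fold, with a 95% interval of 1.46 to 3.11 and a limma-adjusted p of 0.00267. It was called in all 26 alternative settings, with a limma-adjusted p of at most 0.0189.

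In Eln+/+ mice Gpc1 had 0.50, 0.24, 0.017 and 1.00 in the valve, against -1.04, -0.017, -1.10 and -1.32 in the aorta. The lowest valve array, replicate 3, was barely above the highest aorta array, replicate 2. The difference of 1.31, or 2.47-fold, had a 95% interval of 0.48 to 2.14 and a limma-adjusted p of 0.163. Gpc1 averaged 1.25 ± 0.55 in Eln+/- valve, the highest of the 4 groups, and 0.44 ± 0.42 in Eln+/+ valve, and then -1.04 ± 0.83 in Eln+/- aorta, the lowest, and -0.87 ± 0.58 in Eln+/+ aorta (SD, n = 4 each). The means of the 2 aorta groups were closer than their spread.

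Gpc3, an X-linked gene whose loss causes overgrowth in mouse and human, had the opposite order in Eln+/- mice. It stood at -0.78, -0.52, -1.71 and -0.54 on the Eln+/- valve arrays, against 0.31, 0.84, 0.33 and 0.0065 on the Eln+/- aorta arrays. All valve arrays were below all aorta arrays, with valve replicate 3 the lowest. The difference was -1.26 ± 0.29 (SE), 2.40-fold lower in the valve, with a 95% interval of -1.88 to -0.64 and a limma-adjusted p of 0.0179. Without that valve array it was -0.99 with a limma-adjusted p of 0.0600, and without Eln+/- aorta replicates 2 and 4, a setting chosen after the data were seen, it was -1.21 with 0.0785.

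Gpc3 in Eln+/+ mice had -0.21, 0.15, 0.36 and -0.82 in the valve, against 0.41, -0.27, -0.0066 and 0.26 in the aorta. These groups overlapped throughout. The difference was -0.23, with a 95% interval of -0.85 to 0.39 and a limma-adjusted p of 0.812. Without valve replicate 4 it was 0.0057. Whether the tissue difference of Gpc3 itself differs between the genotypes was tested as an interaction, given with the genotype results.

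Gpc6 was lower in the valve on all 5 of its probe sets in both genotypes, from -0.97 to -0.24 in Eln+/- mice and from -0.54 to -0.29 in Eln+/+ mice. The 5 probe sets share 1 gene and the same arrays. Probe set 1437417_s_at had -0.95, -0.68, -1.68 and -0.61 in Eln+/- valve, against 0.17, -0.52, 0.19 and 0.13 in Eln+/- aorta. The groups were separate, with aorta replicate 2 close to the valve arrays. The difference of -0.97 ± 0.23 (SE), 1.96-fold lower in the valve, had a 95% interval of -1.47 to -0.47 and a limma-adjusted p of 0.0228. Without Eln+/- aorta replicate 1, 3 or 4 or Eln+/- valve replicate 1 or 3 the adjusted p was 0.0529 to 0.0713 in limma. The mean over the 5 Gpc6 probe sets was lower by 0.66 on the log2 scale in the valve of these mice and was not called (limma-adjusted p of 0.0682).

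On the Eln+/+ arrays this Gpc6 probe set had -0.43, 0.031, -0.032 and -0.71 in the valve, against 0.30, 0.15, 0.10 and 0.18 in the aorta. The groups were separate, but by little, and the difference of -0.47 had a limma-adjusted p of 0.453. Of the other 4 Gpc6 probe sets none was called in Eln+/- mice. They were 1428774_at at -0.87 (limma-adjusted p of 0.0603), 1419688_at at -0.91 (0.1002), 1419689_at at -0.33 (0.284) and 1441438_at at -0.24 (0.692). Without Eln+/- aorta replicate 2 the difference of 1419688_at was -1.14 with a limma-adjusted p of 0.0286, and without Eln+/- valve replicate 4 it was -1.14 with 0.0411.

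The tissue differences stood beside a difference in muscle content. Over all genes, 4.41% were called higher in the valve and 2.65% lower in Eln+/- mice, and 1.19% and 0.126% in Eln+/+ mice. All 20 cardiac muscle markers were called higher in the valve of Eln+/- mice in limma, with a median difference of 4.30, and 14 of 20 in Eln+/+ mice, with a median of 3.35. Their array means ran from 1.44 to 2.21 in Eln+/- valve and 0.50 to 1.41 in Eln+/+ valve, against -3.48 to -0.85 in Eln+/- aorta and -3.07 to -0.97 in Eln+/+ aorta. Of 12 smooth muscle markers 6 were called lower and 1 higher in Eln+/- valve, with a median of -1.33, and 0 lower and 1 higher in Eln+/+ valve, with a median of -0.61. Their array means ran from -1.84 to -0.47 in Eln+/- valve and -0.62 to 0.26 in Eln+/+ valve, against -0.80 to 0.37 in Eln+/- aorta and 0.079 to 0.41 in Eln+/+ aorta. Ratios hold no level, so whether a marker is absent from a tissue cannot be read.

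Within groups, some arrays at the ends of the marker means were also at the ends of the members. Eln+/- valve replicate 3 had the highest cardiac mean of its group, 2.21, and the lowest smooth muscle mean, -1.84. It also had the highest Gpc1, at 2.00, and the lowest Gpc3 and Gpc6 1437417_s_at, at -1.71 and -1.68. Eln+/+ valve replicate 4 had the highest cardiac mean of its group, 1.41, with the highest Gpc1, at 1.00, and the lowest Gpc3, at -0.82. In the aorta, Eln+/- replicate 2 had the lowest smooth muscle mean, -0.80, the lowest Gpc6 1437417_s_at, -0.52, and the lowest Gpc1, -2.20, of the aorta arrays, with the highest Gpc3, 0.84. Its cardiac mean, -2.76, lay within the range of its group. Eln+/- aorta replicate 3 and Eln+/+ aorta replicate 2 had the highest cardiac means of the aorta, -0.85 and -0.97. For Gpc1 the former stood at -0.91, and the latter at -0.017, the highest Gpc1 of the aorta arrays. Eln+/- aorta replicate 4 had the lowest cardiac mean, -3.48, with the highest Gpc1 of its group, -0.26. The highest cardiac mean of its group went with the highest Gpc1 in Eln+/- valve, Eln+/+ valve and Eln+/+ aorta, but not in Eln+/- aorta. The lowest smooth muscle mean of its group went with the lowest Gpc3 in Eln+/- valve and with the highest in Eln+/- aorta. The part of heart muscle or smooth muscle content in the tissue differences of the members was not tested.

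**Figure D3:**
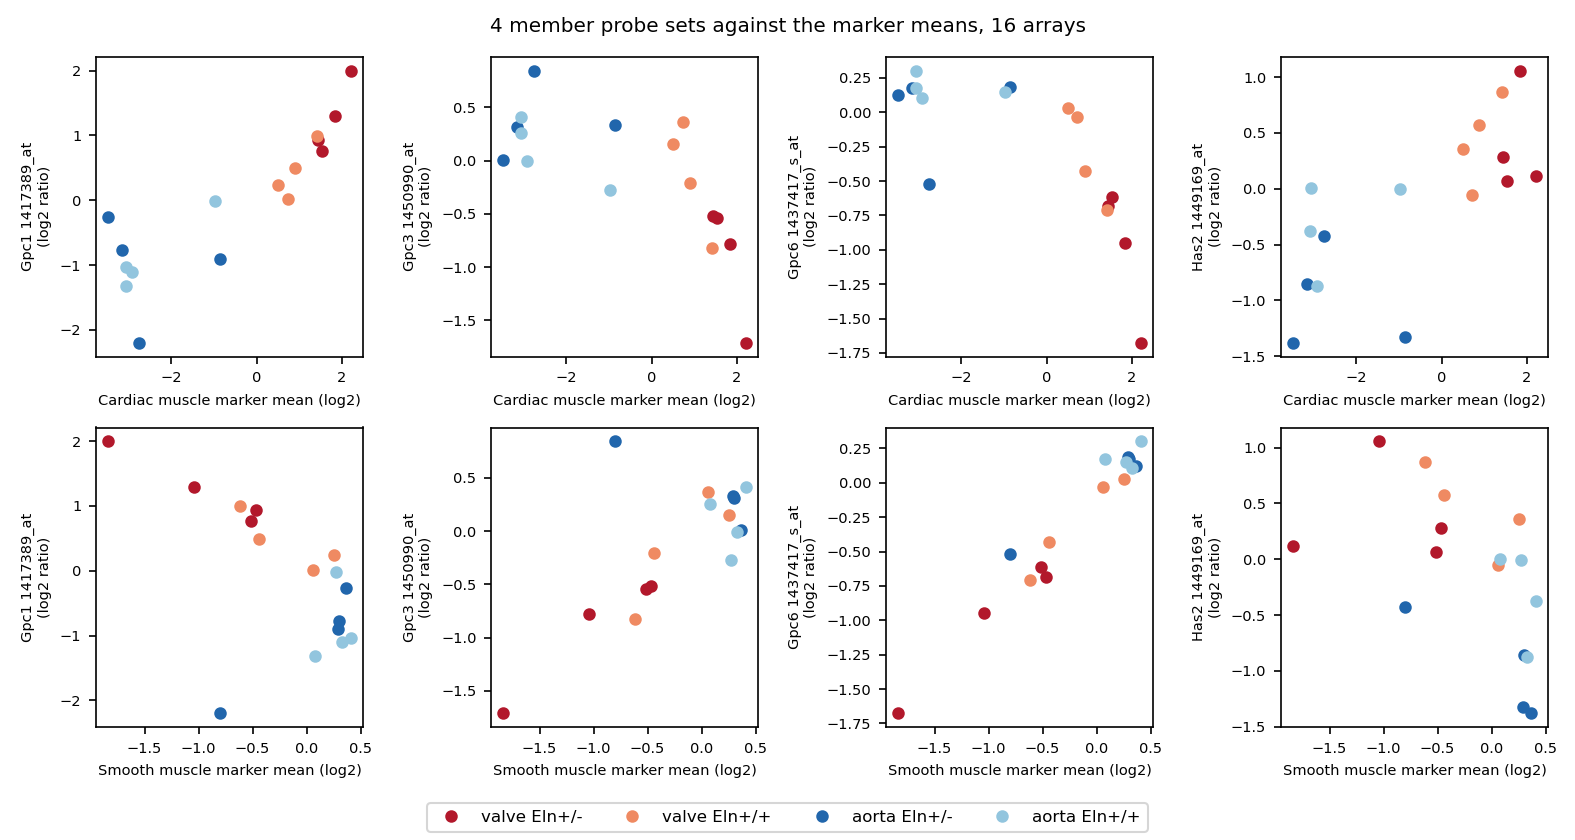
Log2 ratios of Gpc1, Gpc3, Gpc6 1437417_s_at and Has2 1449169_at on each of the 16 arrays, plotted against the mean log2 ratio of the cardiac muscle list (20 genes) and of the smooth muscle list (12 genes). Each point is 1 array, marked by its group. Eln+/- valve replicate 3 is the array with the lowest smooth muscle mean, -1.84, and the lowest Gpc3, -1.71.

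Of the other marker lists, cells that can carry these genes were on both sides. The shares called over all genes were 4.41% higher and 2.65% lower in Eln+/- mice, and 1.19% and 0.126% in Eln+/+ mice. Valve interstitial and fibroblast markers had 2 of 10 called higher and 1 lower in Eln+/- valve, and 2 higher in Eln+/+ valve. Chondrocyte markers had 6 and 2 of 11 called higher in Eln+/- and Eln+/+ valve, endothelial markers 2 and 1 of 10, lymphatic endothelial markers 3 and 2 of 5, and Schwann and nerve markers 2 and 0 of 4. Of the T cell and thymocyte markers 1 of 9 was called lower in Eln+/- mice, and none of the neutrophil, mesothelial and epicardial, adipocyte or sex-linked markers was called in either tissue comparison in limma.

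Genes that work on the same chains were taken from 7 lists, of which 96 of 100 names were measured, each by its probe set of highest SD. In Eln+/- mice 6 were called higher and 6 lower in the valve, where 4.41% of all genes were called higher and 2.65% lower. In Eln+/+ mice 2 were called higher and 0 lower in limma, where 1.19% of all genes were called higher and 0.126% lower. Without Eln+/- aorta replicates 2 and 4, a setting chosen after the data were seen, 3 were called higher and 4 lower in Eln+/- mice. In Eln+/+ mice 4 were then called higher and 1 lower. The shares of unadjusted p set beside these lists below are over all probe sets, which were not picked by SD. They are therefore not a like measure.

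The calls in the list of hyaluronan-binding and link proteins were mostly higher in the valve. Of 22 measured genes 4 were called higher and 1 lower in Eln+/- mice, against 4.41% and 2.65% of all genes. In Eln+/+ mice 2 were called higher, against 1.19% of all genes. The medians were 0.088 in Eln+/- and -0.013 in Eln+/+ mice, against -0.0030 and -0.051 over all genes. Ptx3, a pentraxin that helps to link hyaluronan chains, averaged 1.01 ± 0.41 in Eln+/- valve and -1.93 ± 0.84 in Eln+/- aorta (SD, n = 4 each). That is a difference of 2.94 ± 0.36 (SE), or 7.66-fold, with a limma-adjusted p of 0.000267, and in Eln+/+ mice it was 2.34 with 0.00507. Hapln1, the link protein that fastens versican to hyaluronan, averaged 1.60 ± 1.07 in Eln+/- valve and -0.78 ± 0.81 in Eln+/- aorta (SD, n = 4 each), a difference of 2.38, or 5.22-fold (limma-adjusted p of 0.00871).

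In Eln+/+ mice Hapln1 averaged 2.04 ± 0.29 in the valve and -0.65 ± 0.68 in the aorta (SD, n = 4 each), a difference of 2.69 with a limma-adjusted p of 0.0128, and 2.56 with 0.0551 without valve replicate 1. Itih5, of the family of inter-alpha-trypsin inhibitor heavy chains that attach to hyaluronan, differed by 2.09 in Eln+/- mice and 2.45 in Eln+/+ mice. The call was made in Eln+/- mice (limma-adjusted p of 0.0427) and not in Eln+/+ mice (0.0575), and the difference between the genotypes was not called for any gene. Bcan, which encodes brevican, a hyaluronan-binding proteoglycan best known from brain, differed by 1.10 in Eln+/- mice (limma-adjusted p of 0.0380). Itih2, another heavy chain, fell in the valve of Eln+/- mice, at -0.55 ± 0.31 in the valve and 0.58 ± 0.36 in the aorta (SD, n = 4 each), a difference of -1.14 with a limma-adjusted p of 0.00340.

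The calls of Ptx3, Hapln1 and Itih2 in Eln+/- mice held in all 26 alternative settings, with limma-adjusted p of at most 0.00584, 0.0460 and 0.0267. Bcan lost its call without Eln+/- aorta replicate 1, 2 or 3, Eln+/- valve replicate 1, 2 or 3, or Eln+/+ valve replicate 3 (adjusted p up to 0.112 in limma). Bcan also lost it with quantile normalization, the compared arrays alone and the replicate block (limma-adjusted p of 0.0507 to 0.0714). Itih5 lost it without Eln+/- aorta replicate 1 or 4, any of the 4 Eln+/- valve arrays, Eln+/+ aorta replicate 1 or 2, or Eln+/+ valve replicate 3 or 4 (adjusted p up to 0.127 in limma). Itih5 also lost it with the replicate block, the compared arrays alone, the Xist covariate and without Eln+/- aorta replicates 2 and 4 (0.0519 to 0.135). In Eln+/+ mice Itih5 gained a call in 9 settings, which were quantile normalization, a pseudocount of 0.1, array weights, the compared arrays alone, and without Eln+/- aorta replicate 2, 3 or 4, Eln+/+ aorta replicate 4, or Eln+/- aorta replicates 2 and 4 together (limma-adjusted p of 0.0165 to 0.0494).

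Enzymes that build chondroitin sulfate, the sugar of versican, had their calls on the low side. Of 21 measured genes 0 were called higher and 3 lower in Eln+/- valve in limma, against 4.41% and 2.65% of all genes. In Eln+/+ valve 0 were called in either direction, against 1.19% higher and 0.126% lower of all genes. An unadjusted limma p under 0.05 was found for 8 in Eln+/- valve, against 19% of all probe sets. In Eln+/+ valve 5 had an unadjusted limma p under 0.05, against 11.8% of all probe sets. Chst12, a chondroitin sulfotransferase, averaged -0.64 ± 0.25 in Eln+/- valve and 0.18 ± 0.17 in Eln+/- aorta (SD, n = 4 each), a difference of -0.82 with a limma-adjusted p of 0.00936. Ust, an uronyl sulfotransferase, differed by -1.09 (limma-adjusted p of 0.0131) and Chsy3, a chondroitin synthase, by -1.75 (0.0280). In Eln+/+ mice these 3 were at -0.40, -0.62 and -1.09, with limma-adjusted p of 0.309 to 0.368. Chsy3 lost its call without any of Eln+/- aorta replicates 1, 2 and 3 or Eln+/- valve replicates 1, 2 and 3 (adjusted p up to 0.102 in limma). Chsy3 also lost it with the compared arrays alone and the replicate block (limma-adjusted p of 0.108 and 0.111). Ust lost its call without Eln+/- aorta replicates 2 and 4 together (limma-adjusted p of 0.0914).

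Among 20 genes of heparan sulfate synthesis and editing, the sugar of the glypicans, 1 was called higher and 2 lower in Eln+/- valve in limma. Of all genes, 4.41% were called higher there and 2.65% lower. An unadjusted limma p under 0.05 was found there for 5 of the 20, against 19% of all probe sets. None was called in Eln+/+ valve, where 3 had an unadjusted limma p under 0.05, against 11.8% of all probe sets. Hs3st3a1, a heparan sulfate sulfotransferase, was higher in Eln+/- valve by 1.46 (limma-adjusted p of 0.0344). Ext1, which extends the chain, was lower by 1.18 on the log2 scale, at -0.71 ± 0.57 in Eln+/- valve and 0.47 ± 0.22 in Eln+/- aorta (SD, n = 4 each; limma-adjusted p of 0.0178). Sulf1, which removes sulfate groups from finished chains outside the cell, was at -0.95 ± 0.55 in Eln+/- valve and 0.29 ± 0.15 in Eln+/- aorta (SD, n = 4 each), a difference of -1.24 (limma-adjusted p of 0.0188). In Eln+/+ mice Hs3st3a1, Ext1 and Sulf1 were at 1.37, -0.55 and -0.37, with limma-adjusted p of 0.131, 0.453 and 0.661, and Ext2, the partner of Ext1, was at -0.91 with 0.0562.

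Each of these 3 calls in Eln+/- mice was lost when any of several arrays was left out, while the differences kept their sign. With 1 array left out they ran from -1.33 to -0.90 for Ext1, -1.48 to -1.07 for Sulf1 and 1.18 to 1.60 for Hs3st3a1. Ext1 lost its call without Eln+/- aorta replicate 4 or Eln+/- valve replicate 3, Sulf1 without Eln+/- aorta replicate 3 or Eln+/- valve replicate 1 or 4, and Hs3st3a1 without Eln+/- aorta replicate 1, 3 or 4 or Eln+/- valve replicate 1, 2 or 3. Their adjusted p then ran up to 0.0600, 0.0666 and 0.0936 in limma. Without Eln+/- aorta replicates 2 and 4 together, Ext1, Sulf1 and Hs3st3a1 had limma-adjusted p of 0.136, 0.0852 and 0.0984. With quantile normalization Hs3st3a1 had 0.0513.

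The remaining lists had 1 call, in Eln+/- mice, where 4.41% of all genes were called higher. Fbln1, the fibulin that binds versican, differed by 1.00 in Eln+/- mice, or 2.00-fold (limma-adjusted p of 0.0334), and by 0.71 in Eln+/+ mice (0.281), as 1 of 8 versican-binding partners. Its call was lost without Eln+/- aorta replicate 1 or 4 or Eln+/- valve replicate 1 or 2 (adjusted p up to 0.105 in limma). It was also lost with the compared arrays alone and without Eln+/- aorta replicates 2 and 4 together (limma-adjusted p of 0.120 and 0.122). None of 9 hyaluronan turnover genes, 8 versican-cleaving proteases and 8 other glypicans and syndecans was called in limma. An unadjusted limma p under 0.05 was found for 2, 1 and 2 of them in Eln+/- mice, against 19% of all probe sets. In Eln+/+ mice it was found for 2, 1 and 1, against 11.8%. The nearest were Cemip2, a cell-surface hyaluronidase, at -0.85 in Eln+/- mice (limma-adjusted p of 0.0577), and Sdc3, a syndecan, at 1.47 in Eln+/+ mice (0.0928). Adamts5, a protease that cuts versican, was at -0.81 in Eln+/- mice (limma-adjusted p of 0.183). Sdc4, another syndecan, was at -0.64 in Eln+/- mice (limma-adjusted p of 0.120). Without Eln+/- aorta replicate 1, Cemip2 in Eln+/- mice and Sdc3 in Eln+/+ mice had limma-adjusted p of 0.0314 and 0.0164, without Eln+/- valve replicate 4 Cemip2 had 0.0101, and without Eln+/- aorta replicate 2 Sdc4 had 0.00474.

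Between the genotypes no member was called in either tissue. In the valve 0 of 24 probe sets passed in limma, 5 had an unadjusted p under 0.05, against 8.6% of all probe sets, and the lowest adjusted p was 0.427, while 0% of all probe sets passed. In the aorta 0 of 24 passed, 1 had an unadjusted p under 0.05, against 5.51% of all, and the lowest adjusted p was 0.885 in limma, again with 0% of all probe sets called. The Eln+/- and Eln+/+ arrays overlapped for all 24 in both tissues, where 5.04% of all probe sets in the valve and 2.84% in the aorta did not overlap.

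The sizes in the valve were largest for the glypicans. Gpc3 averaged -0.89 ± 0.56 in Eln+/- valve and -0.13 ± 0.52 in Eln+/+ valve (SD, n = 4 each), a difference of -0.76 with a 95% interval of -1.38 to -0.14, an exact permutation p of 0.114 and a limma-adjusted p of 0.484. Gpc6 1437417_s_at averaged -0.98 ± 0.49 in Eln+/- valve and -0.28 ± 0.35 in Eln+/+ valve (SD, n = 4 each), a difference of -0.69 with a 95% interval of -1.19 to -0.20 and a limma-adjusted p of 0.427. Gpc1 differed by 0.81, with a 95% interval of -0.017 to 1.64 and a limma-adjusted p of 0.585. The signs in the valve were thus negative for Gpc3 and for all 5 Gpc6 probe sets, and positive for Gpc1, and none of these was called.

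The cardiac muscle markers were positive for 20 of 20 members in the same comparison, with a median of 0.81, and the smooth muscle markers negative for 11 of 12, with a median of -0.85, with 0 called in limma in either list. With the cardiac mean of each array as a covariate, the genotype difference in the valve was -0.26 for Gpc1, 0.45 for Gpc3 and 0.25 for Gpc6 1437417_s_at, each of the opposite sign. The cardiac means ran from 1.44 to 2.21 in Eln+/- valve and from 0.50 to 1.41 in Eln+/+ valve, without overlap. This fit therefore cannot separate muscle content from genotype, and the part of muscle content was not tested. With the Xist measure as the covariate instead, Gpc1 was at 1.13, Gpc3 at -0.98 and Gpc6 1437417_s_at at -0.86, with limma-adjusted p of 0.629 to 0.701. That fit rests on Eln+/+ valve replicate 2 and Eln+/+ aorta replicate 4, the Eln+/+ arrays with the signal of the Eln+/- arrays.

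Vcan 1427256_at averaged 0.30 ± 0.39 in Eln+/- valve and 0.69 ± 0.20 in Eln+/+ valve (SD, n = 4 each), a difference of -0.39 with a 95% interval of -0.77 to -0.022 and a limma-adjusted p of 0.550. Over the 8 Vcan probe sets the difference ran from -0.49 to 0.16. Has2 1449169_at differed by -0.055 in the valve, with a 95% interval of -0.65 to 0.54. Cd44 1434376_at differed by -0.25 in the valve (limma-adjusted p of 0.834). With the cardiac mean as a covariate Vcan, Has2 and Cd44 were at -0.18, -0.45 and -0.19.

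In the aorta the size to name was that of Has2. The Has2 values above averaged -0.996 in Eln+/- aorta and -0.31 in Eln+/+ aorta, a difference of -0.68 ± 0.28 (SE) with a 95% interval of -1.28 to -0.086. The exact permutation p was 0.0857 and the adjusted p 0.885 in limma, and 3 of the 4 Eln+/- arrays lay at or below -0.85, where 1 of the 4 Eln+/+ arrays did. With the Xist measure as a covariate the difference was -0.80. Gpc1 and Gpc3 differed by -0.17 and 0.28 in the aorta, with limma-adjusted p of 0.974 and 0.923.

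**Figure D4:**
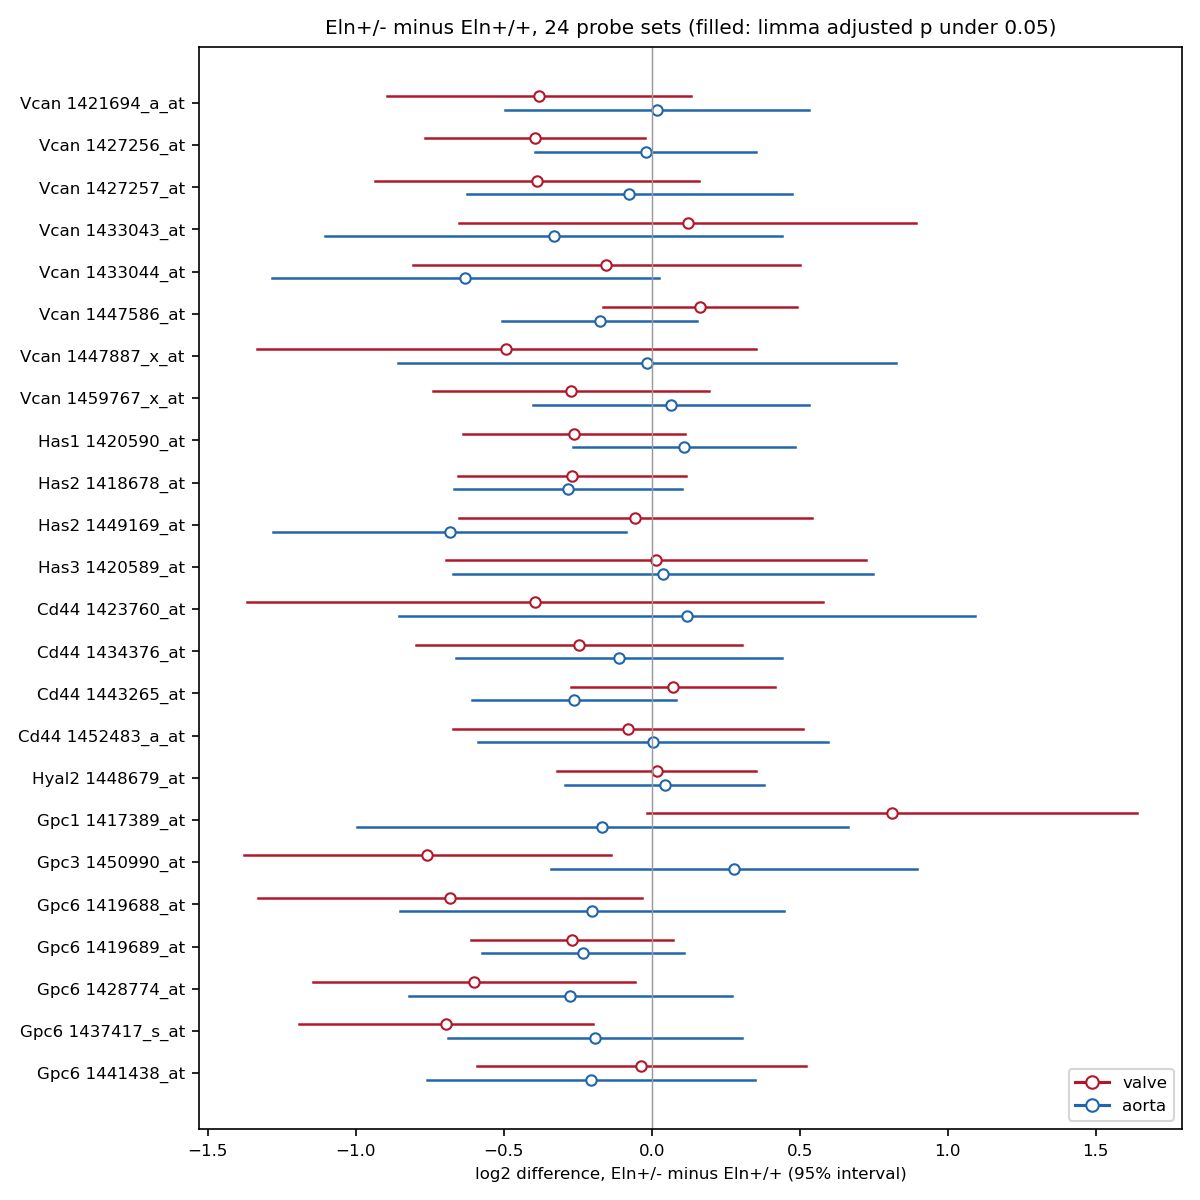
Eln+/- minus Eln+/+ difference of the log2 ratio, with its 95% interval, for all 24 probe sets in valve and in aorta (4 against 4 arrays each). No point is filled, since none had an adjusted p under 0.05 in limma. All 5 Gpc6 probe sets lie below 0 in both tissues, from -0.69 to -0.035 in the valve and from -0.28 to -0.19 in the aorta.

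The genotype effect was then compared between the tissues, which is the same test as comparing the tissue difference between genotypes. None of the 24 passed in limma, 1 had an unadjusted p under 0.05, against 7.72% of all probe sets, and 0% of all probe sets were called. That 1 was Gpc3, with an interaction of -1.04 ± 0.41 (SE), a 95% interval of -1.91 to -0.16 and a limma-adjusted p of 0.628. The interaction was 0.98 ± 0.55 (SE) for Gpc1 and 0.63 ± 0.40 (SE) for Has2 1449169_at, with limma-adjusted p of 0.687 and 0.708. The calls made in Eln+/- mice alone, for Gpc1, Has2, Gpc3 and Gpc6, are therefore not shown to differ from Eln+/+ mice.

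None of the 96 genes of the 7 lists was called between genotypes in limma either. An unadjusted limma p under 0.05 was found for 6 in the valve and 6 in the aorta, against 8.6% and 5.51% of all probe sets. Those shares are over probe sets that were not picked by SD, so they are not a like measure. In the valve the sizes of the genes of lowest p in their lists included Chst12 at -0.57, Sulf1 at -0.80, Sdc3 at -0.88 and Cemip, a hyaluronan-degrading protein, at 0.57, with limma-adjusted p of 0.422 to 0.537. In the aorta they included Cemip2 at 0.94, Adamts5 at 0.82 and Ptx3 at -0.82, with limma-adjusted p of 0.867 to 0.885.

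Genes whose pattern over the 16 arrays was closest were found by the root mean square difference of the log2 ratios. For Has2 they were Fbln1 at 0.34, Slc9a3r2 at 0.39 and Acot2 at 0.40. For Gpc1 they were Trak1 at 0.39, Ckm at 0.40 and Cryab at 0.41. For Gpc3 they were Sema3c at 0.28, Skap2 at 0.30 and Sh3bgrl at 0.31. For scale, the SD of Gpc1 over the arrays was 1.12 and that of Gpc3 0.63. All of these distances are taken over the same 16 arrays, which share tissue, genotype and dissection, and Ckm is a member of the cardiac muscle list.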

How the data were processed

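RNA of 16 mouse specimens was measured on Affymetrix mouse genome arrays. RMA is named per the submitters' processing notes. The deposited values are a ratio of a probe set's signal to its median over the arrays, as the values show: that median was 1 in 39827 of 45101 probe sets, below 1 in 5274 and above 1 in 0. The authors' division is not described in the labels. The deposited ratios were put on the log2 scale, with no pseudocount, and 64 control probe sets were left out. Ratios keep no level, so no filter on dim probe sets was possible. The platform annotation gives 34945 of the 45037 others 1 gene, 932 several and 9160 none.

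A limma model (limma 3.58.1 and statmod 1.5.0 in R 4.3.3) with a mean for each of the 4 groups used all 16 arrays, with 12 residual and 3.60 prior degrees of freedom, two-sided, with Benjamini-Hochberg adjustment over all probe sets. Exact two-sided permutation tests used the 70 assignments of 8 arrays. The number of arrays limits the precision, and p-values measure the spread between these specimens. The fit was tested on data simulated from the residuals of these arrays. False calls there made up on average 7.2% of all calls in Eln+/- tissue and 14.4% in Eln+/+ tissue. The medians over simulations were 4.4% and 9.8%. Between genotypes the means were 16.2% in the valve and 8.7% in the aorta, with medians of 12.7% and 3.4%. Each of the 4 means was a larger share than the threshold on the adjusted p.

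Every probe set of the members was tested and counted, but not every one is described singly. Of each of 7 pathway lists, called genes were named up to 4 by lowest p in each tissue comparison, and otherwise the gene of lowest p. Each gene was shown by its probe set of highest SD. In the Eln+/+ tissue comparison Ugdh and Mmp2 had the lowest p of their lists, were not called and are not described above. Itih5 was added after its values were seen, to complete its list's count. The 3 nearest genes were named for Has2, Gpc1 and Gpc3. Members and lists, and 13 marker lists, were chosen with earlier results of these data known. Alternatives were other scalings, a pseudocount of 0.1, leaving out probe sets of median below 1, array weights, robust moderation, the compared arrays alone, a replicate block, covariates, the mean over the probe sets of a gene and leaving out each array.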

Additional observations from a re-analysis of the deposited data

Results flagged for a closer look

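Of 96 groups of 4 arrays, 4 held an array farther from the others than the 95% critical value of Dixon's ratio allows, where chance gives about 1 in 20. Has2 1418678_at stood at -0.10 on Eln+/- valve replicate 2, against -0.81 to -0.75 on the other 3 arrays. Gpc6 had the other 3, on 3 probe sets. Its probe set 1437417_s_at stood at -0.52 on Eln+/- aorta replicate 2, the array with the highest T cell mean and the lowest smooth muscle mean of the aorta, against 0.13 to 0.19 on the other 3 arrays. Probe set 1428774_at stood at 0.71 on Eln+/+ aorta replicate 1, against 0.31 to 0.36, and 1441438_at at -0.38 on Eln+/+ valve replicate 4, against -0.027 to 0.0071. No cause was tested for any of the 4.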

How the results depend on the processing

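Of the 5 called member results, 0 reversed in any alternative. Has2 and Gpc1 in Eln+/- mice kept their calls throughout, and Gpc3, Gpc6 1437417_s_at and Vcan did not. With the mean over the probe sets of a gene, Vcan, Has2 and Gpc1 were called higher and Gpc3 lower in Eln+/- mice, Gpc6 was not called, and 1 member gene, Vcan, was called higher in Eln+/+ mice, against 0 by the probe set of highest SD. With each array left out in turn, members called higher ran from 2 to 4 and lower from 0 to 4 in Eln+/- mice, and higher from 0 to 2 in Eln+/+ mice. Listed pathway genes ran from 2 to 7 higher and 4 to 10 lower in Eln+/- mice, and from 1 to 4 higher and 0 to 1 lower in Eln+/+ mice. Of the 24 member probe sets, 1 was called lower in Eln+/- mice when only the compared arrays were fitted, with fewer samples.

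With the replicate block 1 member was lower in Eln+/- mice (Gpc6 1437417_s_at had a limma-adjusted p of 0.0670), 0 higher in Eln+/+ mice (Vcan 1427256_at had 0.136), and 1 listed gene lower in Eln+/+ mice. Over all probe sets the block gave 1278 higher and 784 lower in Eln+/- mice and 272 and 25 in Eln+/+ mice, against 1473, 1142, 382 and 44 without it. Arrays of the same number correlated at -0.040 to 0.052, and 2 of 8 correlated best with their own number. Such weak correlations cannot show whether equally numbered valve and aorta pieces share an animal, and the labels leave this unstated. The main fit treated all arrays as independent. Fitting only the compared arrays gave 569 lower over all probe sets in Eln+/- mice, and quantile normalization gave 605 higher and 87 lower in Eln+/+ mice.

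In Eln+/+ mice, listed genes called higher were 4 with quantile normalization, array weights, only the compared arrays, or without Eln+/- aorta replicates 2 and 4, and 6 with the mean over probe sets, and 1 was lower in each of those first 4 settings. Without those 2 arrays 3 were higher in Eln+/- mice.

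Reversed values without a call were as follows. Without Eln+/- aorta replicates 2 and 4, Has3 in Eln+/- tissue was at 0.038 and Gpc1 between aorta genotypes at 0.031. With array medians set to 0, Sdc3 in Eln+/- tissue was at 0.0035. With array weights, Has2 between valve genotypes was at 0.015. With the cardiac covariate, Gpc1, Gpc3, Gpc6 and Cemip between valve genotypes were at -0.26, 0.45, 0.25 and -0.21, and with the Xist covariate Gpc1 between aorta genotypes was at 0.15. With 1 array left out, the ranges were -0.16 to 0.017 for Has3 and -0.20 to 0.45 for Sdc3 in Eln+/- tissue. In Eln+/+ tissue they were -0.061 to 0.19 for Has1, -0.42 to 0.23 for Has3 and -0.39 to 0.0057 for Gpc3. Between genotypes they were -0.28 to 0.088 for Has2 in the valve and -0.42 to 0.22 for Gpc1 in the aorta. Beyond the fits' own construction, the cause was not tested. Of the single results' other settings, 1147 with an array left out and 733 others kept direction and side of the threshold, 51 and 20 lost a call, and 17 and 14 gained one. Ratios hold no signal over background, so what dim signal limits is unknown.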
